A study of Mus musculus with 8 samples.

Results

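The transcripts described here encode 10 ligands of the TNF superfamily that T cells can make: *Tnf*, *Lta*, *Ltb*, *Tnfsf8*, *Tnfsf10*, *Tnfsf11*, *Tnfsf14*, *Cd40lg*, *Fasl* and *Cd70*. The rule that chose them is a list of names and uses no measured value. All 10 were found among the 20172 genes of the deposited table, 9 of them with a mean of at least 10 normalized counts over the libraries, and *Cd70* lay below that level. *Tnfsf8*, *Tnfsf11* and *Tnfsf10*, which encode CD30L, RANKL and TRAIL, were 2.34, 2.10 and 1.78 times as high in TNFR2+ as in TNFR2- Tregs. *Tnfsf14*, which encodes LIGHT, lay higher in every TNFR2+ library but did not pass the threshold. *Tnf*, *Lta*, *Ltb*, *Cd40lg* and *Fasl* overlapped between the populations and did not pass it either.

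The study asked how the production of TNF and the expression of its receptor TNFR2 are distributed among regulatory T cells (Tregs). For the sequencing, Tregs of mice with the Foxp3 YFP-cre genotype, in which the cells that express Foxp3 carry a yellow fluorescent protein, were sorted from the spleen by surface TNFR2. Each population, TNFR2+ and TNFR2-, was represented by 4 libraries (replicates 1 to 4), and both came from mice of that genotype, so that all 8 libraries carry the Foxp3 reporter allele. No stimulation is named in the labels of these samples, the series text calls the mice female while the study's methods name adult mice of both sexes, and nothing in the labels says whether libraries of a population came from separate mice, so p values measure only the spread between these libraries.

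Ligands of this family are made as trimers in the cell membrane, and several of them are cut from it by proteases, with ADAM17 releasing soluble TNF. They act on neighboring cells, or on the cell that makes them, through receptors that recruit TRAF adaptors and activate NF-κB, and TNF, FasL and TRAIL also act through receptors with a death domain. In T cells most of these ligands are induced by antigen receptor signals. The mRNA of *Tnf* is short-lived, since proteins that bind AU-rich elements in its 3′ untranslated region speed its decay.

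The values were normalized counts, which the authors made from transcript estimates divided by a size factor per library, and which summed to between 9576920 and 11492762 per library. The steps between low values gave estimated depths of 9100000 to 12110000 reads. The populations were compared with limma on log2(normalized count + 1) over the 13990 genes with a mean of at least 10, with Benjamini-Hochberg adjustment over all of them and a threshold of 0.05. Fold changes are TNFR2+ over TNFR2- on that scale, where 1 is a doubling. The added 1 lowers differences between low values, and means of log2 values can differ from the ratio of the mean counts in either direction. *Tnfrsf1b*, which encodes TNFR2, had 3148, 1840, 2631 and 2383 normalized counts in TNFR2+ replicates 1 to 4 and 1266, 1563, 1177 and 1277 in TNFR2- replicates 1 to 4 (log2 fold change 0.90, limma adjusted p = 0.00449), in the direction of the sort. *Foxp3* lay between 2812 and 3313 in TNFR2+ and between 3292 and 4033 in TNFR2- libraries, and *Cd4* between 3967 and 4505 and between 3009 and 4240. The Y-linked genes *Kdm5d* (131 to 195 and 122 to 257) and *Uty* (72.2 to 172 and 85.8 to 212) were present in all 8 libraries beside *Xist* (16369 to 18154 and 10228 to 13795). *Kdm5d* and *Uty* go against the series text for every library alike, but *Ddx3y* and *Eif2s3y*, also Y-linked, were not among the genes listed. *Xist* was higher in every TNFR2+ library (log2 fold change 0.52, limma adjusted p = 0.00773). *Kdm5d* and *Uty*, at 0.04 and −0.15 on that scale, did not pass the threshold (limma adjusted p = 0.957 and 0.838). The sex of the mice was not settled here.

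The sequences that set *Tnf* and *Lta* apart from the other 8 ligands lie in their 3′ untranslated regions. The pentamer ATTTA is the core of an AU-rich element, and the nonamer TTATTTATT is the form that the decay factor tristetraprolin binds. The windows below were chosen in each region for the most TTATTTATT and then the most ATTTA. They are read on the minus strand from GENCODE M21 transcripts of GRCm38 at chr17:35199679-35199708 and chr17:35203404-35203433, with ATTTA in capitals.
Tnf: attATTTAttATTTATTTAttATTTATTTA
Lta: tatggagagaaaagttaagttATTTATTTA
The *Tnf* window held 5 ATTTA and 4 TTATTTATT, which contain ATTTA and were counted with overlaps, and the *Lta* window held 2 and 1. Over the whole 3′ untranslated region of 764 bases, *Tnf* had 8 ATTTA and 5 TTATTTATT, and 4.2% of 1434 such regions of like length (0.8 to 1.25 times) held the nonamer at all. *Lta* had 3 and 1 over 572 bases, where 3.6% of 1191 regions of like length held it. None of the other 8 ligands had the nonamer, although *Tnfsf8* had 10 ATTTA over 2799 bases, *Tnfsf10* 8 over 3998 bases and *Tnfsf11* 6 over 1131 bases, and *Ltb* had none over 174 bases. Among the 11476 tested genes with an annotated 3′ untranslated region, 8.8% held TTATTTATT.

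The study also measured miR-146a, a microRNA induced by NF-κB, beside TNF. Its mature form, mmu-miR-146a-5p, is encoded at chr11:43374435-43374456 on the minus strand (RefSeq, GRCm38.p6) and is printed with the seed, bases 2 to 8, in capitals. The *Tnfsf8* window is the only match to that seed in the 3′ untranslated regions of the 10 ligands, at chr4:63833270-63833299 on the minus strand of GRCm38, with the match AGTTCTC in capitals.
mmu-miR-146a-5p: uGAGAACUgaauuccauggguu
Tnfsf8: gggcccctgggAGTTCTCcttcagtaagga
The 3′ untranslated region of *Tnf* had 0 matches to the seed. Of 1944 regions about as long as that of *Tnfsf8*, 21.9% held a match, as did 13.8% of those of all tested genes, so that a single match is common at this length. A match is a run of letters and not a measured site.

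The 3 ligands that rose lie on 3 chromosomes, and the promoters of these and of *Tnf* are printed so that their letters can be compared. RefSeq (GRCm38.p6) gave 300 bases, from 250 before to 50 after the start, for 8 of the 10 ligands, with none for *Cd40lg* and *Cd70*. The positions are chr17:35201958-35202257 (minus strand) for *Tnf*, chr4:63861235-63861534 (minus strand) for *Tnfsf8*, chr14:78307994-78308293 (minus strand) for *Tnfsf11* and chr3:27316827-27317126 (plus strand) for *Tnfsf10*. Capitals mark matches on either strand to TATAAA or to GGGNNNNNCC, a loose NF-κB pattern.
Tnf: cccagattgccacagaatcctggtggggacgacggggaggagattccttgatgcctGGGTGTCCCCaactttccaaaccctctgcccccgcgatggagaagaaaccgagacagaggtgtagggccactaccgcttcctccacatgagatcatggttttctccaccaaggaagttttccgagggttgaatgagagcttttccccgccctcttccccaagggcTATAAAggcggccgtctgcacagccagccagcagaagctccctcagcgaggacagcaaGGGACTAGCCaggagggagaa
Tnfsf8: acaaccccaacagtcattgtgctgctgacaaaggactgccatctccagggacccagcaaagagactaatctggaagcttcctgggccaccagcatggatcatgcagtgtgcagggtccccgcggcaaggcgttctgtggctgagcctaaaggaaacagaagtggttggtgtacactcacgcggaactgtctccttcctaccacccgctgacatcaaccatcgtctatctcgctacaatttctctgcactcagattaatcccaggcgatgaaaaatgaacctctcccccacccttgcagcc
Tnfsf11: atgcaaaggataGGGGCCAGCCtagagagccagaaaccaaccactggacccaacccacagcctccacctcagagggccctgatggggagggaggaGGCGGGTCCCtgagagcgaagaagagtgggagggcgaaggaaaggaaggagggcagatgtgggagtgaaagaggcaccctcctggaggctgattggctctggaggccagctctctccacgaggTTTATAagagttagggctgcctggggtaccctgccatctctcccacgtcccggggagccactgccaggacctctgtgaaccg
Tnfsf10: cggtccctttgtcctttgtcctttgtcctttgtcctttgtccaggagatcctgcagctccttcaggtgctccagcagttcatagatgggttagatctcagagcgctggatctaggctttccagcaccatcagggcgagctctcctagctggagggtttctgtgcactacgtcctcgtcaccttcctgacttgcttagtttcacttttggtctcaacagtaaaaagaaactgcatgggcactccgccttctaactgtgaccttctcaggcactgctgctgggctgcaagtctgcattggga
The promoters of *Tnf* and *Tnfsf11* each held 2 matches to the NF-κB pattern and 1 to TATAAA, at 29 and 32 bases before the start. Those of *Tnfsf8* and *Tnfsf10* held neither, so the 3 ligands that rose did not share these letters. Of 32851 mouse promoters of this length 50.8% held the NF-κB pattern and 13.6% held TATAAA. The AP-1 motif TGANTCA, in 7.8% of promoters, was searched too, and among the 8 ligands it was found in that of *Tnfsf14*, which also held 4 matches to the NF-κB pattern, some of them overlapping.

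Limma called 3 of the 9 tested ligands higher and 0 lower in TNFR2+ Tregs (4 and 0 with an unadjusted p under 0.05). Among all genes tested 4.52% were called higher, 3.39% lower and 7.91% in either direction. The median log2 fold change of the ligands was 0.46, with 6 above 0 and 3 below, against −0.01 over all genes tested. In 4 of the 9 the lowest TNFR2+ library exceeded the highest TNFR2- library, and in none the reverse, where 8.08% of all tested genes did so in that direction and 15.4% in either. RNA of sorted populations cannot tell fewer cells that make a ligand from less RNA per cell.

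**Figure D1:**
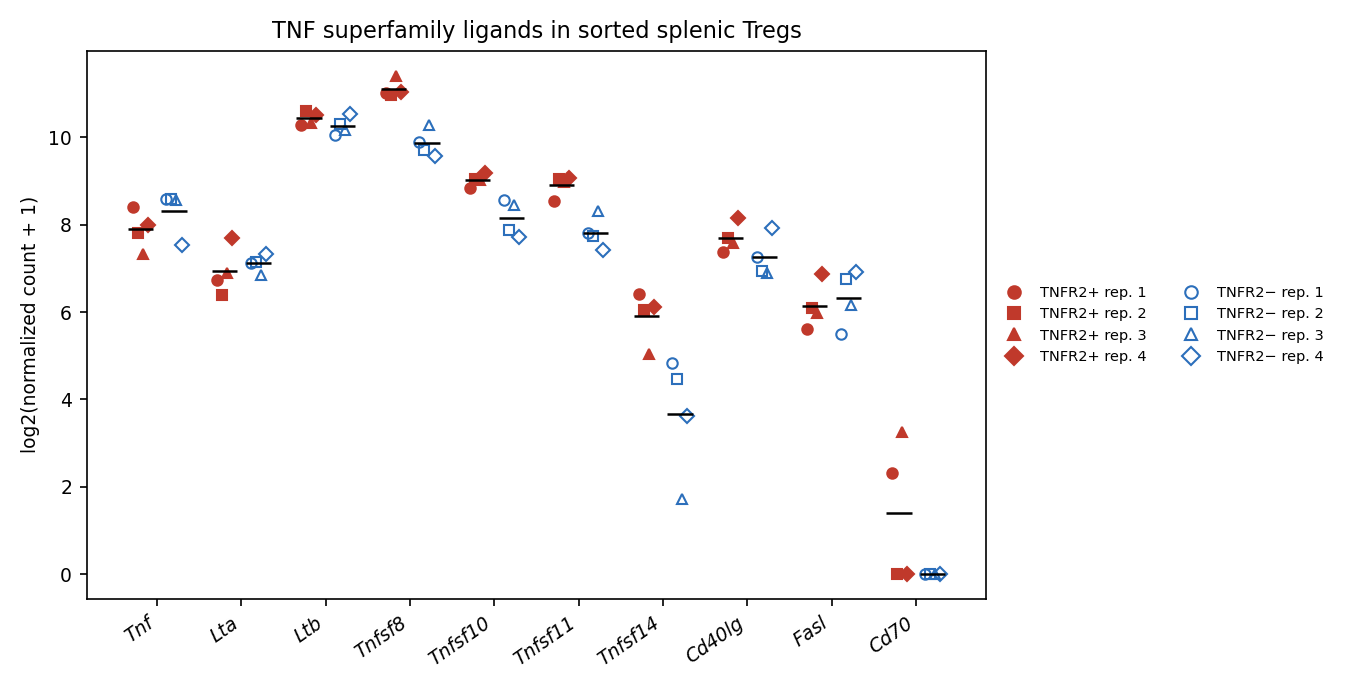
Normalized counts of the 10 ligands in each library on a log2(normalized count + 1) axis, with filled red symbols for the 4 TNFR2+ and open blue symbols for the 4 TNFR2- libraries, 1 shape per replicate, and black bars at the mean of the log2 values. The groups do not overlap in *Tnfsf8*, *Tnfsf10*, *Tnfsf11* and *Tnfsf14*, they overlap in *Tnf*, *Lta*, *Ltb*, *Cd40lg* and *Fasl*, and *Cd70* is above 0 in 2 libraries.

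*Tnf* (ENSMUSG00000024401), *Lta* (ENSMUSG00000024402) and *Ltb* (ENSMUSG00000024399) lie side by side on chromosome 17 of GRCm38, at chr17:35199381-35202007, chr17:35203165-35205351 and chr17:35194439-35196320. *Tnf* encodes TNF, which in its membrane form is the main ligand of TNFR2. It had 341, 225, 161 and 254 normalized counts in TNFR2+ replicates 1 to 4, and 386, 382, 380 and 184 in TNFR2- replicates 1 to 4. In 3 of the TNFR2- libraries *Tnf* thus lay above all TNFR2+ libraries, while TNFR2- replicate 4 lay below all but 1 of them. The means were 245 ± 74.5 and 333 ± 99.2 (SD, n = 4 each), with a log2 fold change of −0.43 (standard error 0.29, 95% interval −1.06 to 0.20). This did not pass the threshold (limma adjusted p = 0.419), and the exact two-sided permutation test over the 8 libraries gave p = 0.286. Without TNFR2- replicate 4 the log2 fold change was −0.69 (limma adjusted p = 0.137).

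Annotated microRNA genes that were not among the genes of the deposited table overlap *Lta* and *Ltb* on the same strand. *Lta* encodes lymphotoxin α, which is secreted as a trimer that binds both TNF receptors, or held at the membrane together with lymphotoxin β. It had 106, 83.2, 118 and 207 normalized counts in TNFR2+ replicates 1 to 4, and 138, 140, 115 and 161 in TNFR2- replicates 1 to 4. The TNFR2+ libraries spanned the range of the TNFR2- ones and more (129 ± 54.1 against 138 ± 18.8, SD, n = 4 each), with a log2 fold change of −0.18 (95% interval −0.84 to 0.48, limma adjusted p = 0.780). *Ltb* encodes lymphotoxin β, the membrane anchor of the heterotrimer that organizes lymphoid tissue through the lymphotoxin β receptor. It had 1242, 1566, 1294 and 1465 normalized counts in TNFR2+ replicates 1 to 4 and 1063, 1259, 1143 and 1474 in TNFR2- replicates 1 to 4. The groups overlapped, with a log2 fold change of 0.18 whose interval, −0.13 to 0.48, was the narrowest of the 9 ligands (limma adjusted p = 0.504).

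Of the 18 other annotated genes of the table that lie at least in part within 100 kb of *Tnf*, 11 were tested, 1 of these passed the threshold in each direction, and their log2 fold changes ran from −1.52 to 0.72. *Csnk2b*, which encodes the regulatory subunit of casein kinase 2, had 719 ± 77.9 normalized counts in TNFR2+ and 441 ± 86.5 in TNFR2- Tregs (SD, n = 4; log2 fold change 0.72, limma adjusted p = 0.0253). *Abhd16a*, which encodes a phosphatidylserine lipase, had 123 ± 18.6 and 367 ± 121 (log2 fold change −1.52, limma adjusted p = 0.00339). Both lie on the same side of *Tnf*, and the call of *Csnk2b* was lost when the variances were moderated without a trend. Around all 10 ligands 27 of 36 other genes were tested, with the same 2 calls, a share close to the 7.91% called among all genes tested.

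**Figure D2:**
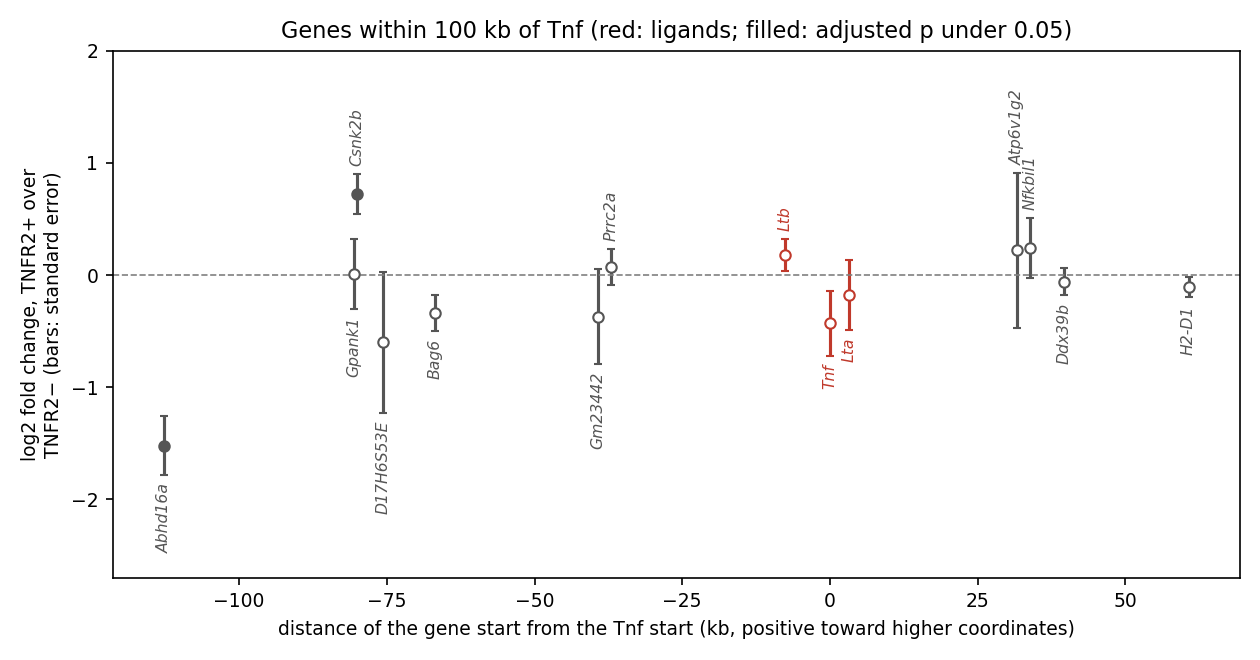
Log2 fold change of TNFR2+ over TNFR2- Tregs (y axis, bars are standard errors) for the tested genes that reach within 100 kb of *Tnf*, against the distance of each gene's start from the start of *Tnf* in kb (x axis, positive toward higher coordinates). The 3 ligands, in red, lie between −0.43 and 0.18 with open symbols, and the filled symbols of *Csnk2b* at 0.72 and *Abhd16a* at −1.52 are the genes past the threshold.

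*Tnfsf8* (ENSMUSG00000028362, chr4:63831308-63861347) encodes CD30L, which engages CD30 on activated T cells. It had 2077, 1993, 2729 and 2122 normalized counts in TNFR2+ replicates 1 to 4, and 950, 840, 1255 and 761 in TNFR2- replicates 1 to 4. The lowest TNFR2+ library lay well above the highest TNFR2- library. The means were 2230 ± 337 and 952 ± 217 (SD, n = 4 each), with a log2 fold change of 1.24 (standard error 0.17, 95% interval 0.88 to 1.60, limma adjusted p = 0.000799). The exact two-sided permutation test gave p = 0.0286, the smallest that 4 libraries against 4 allow. With any 1 library left out the log2 fold change stayed between 1.14 and 1.38 and past the threshold.

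*Tnfsf11* (ENSMUSG00000022015, chr14:78277445-78308043) encodes RANKL, which drives osteoclast differentiation and acts on dendritic cells and on thymic epithelium through RANK. It had 374, 532, 501 and 539 normalized counts in TNFR2+ replicates 1 to 4, and 223, 214, 317 and 170 in TNFR2- replicates 1 to 4. The groups did not overlap, and the closest libraries were TNFR2+ replicate 1 and TNFR2- replicate 3. The means were 487 ± 77.0 and 231 ± 61.9 (SD, n = 4 each), with a log2 fold change of 1.09 (standard error 0.22, 95% interval 0.61 to 1.57, limma adjusted p = 0.00909). It stayed past the threshold without any 1 library, between 0.96 and 1.26.

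*Tnfsf14* (ENSMUSG00000005824, chr17:57189492-57194177) encodes LIGHT, which binds HVEM and the lymphotoxin β receptor. It had 84.0, 65.6, 31.7 and 68.6 normalized counts in TNFR2+ replicates 1 to 4, and 27.4, 21.1, 2.31 and 11.2 in TNFR2- replicates 1 to 4, the value of 2.31 standing for about 2.0 reads. The groups did not overlap, with a small margin between TNFR2+ replicate 3 and TNFR2- replicate 1. The means differed by 4.03 times, with 62.5 ± 22.0 and 15.5 ± 11.0 (SD, n = 4 each). The log2 fold change of 2.25 had a wide interval, 0.77 to 3.72, and did not pass the threshold (standard error 0.68, limma adjusted p = 0.0635). It was 1.60 without TNFR2- replicate 3, and it passed with a pseudocount of 10 (1.56, limma adjusted p = 0.0404).

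*Cd40lg* (ENSMUSG00000031132, chrX:57212143-57224042) encodes CD40L, through which helper T cells license B cells and dendritic cells. It had 164, 208, 192 and 284 normalized counts in TNFR2+ replicates 1 to 4, and 152, 121, 118 and 241 in TNFR2- replicates 1 to 4. All but 1 of the TNFR2- libraries lay below all TNFR2+ libraries, and replicate 4 was the highest in both populations. The log2 fold change of 0.46 did not pass the threshold (95% interval −0.16 to 1.07, limma adjusted p = 0.371). *Cd70* (ENSMUSG00000019489, chr17:57145997-57149777), whose product costimulates T cells through CD27, had 3.98 and 8.53 normalized counts in TNFR2+ replicates 1 and 3, which stand for about 4.0 and 8.8 reads. It was listed at 0 in the other 6 libraries, in each of which a count of 0 allows up to 3 reads, or 2.55 to 3.46 normalized counts over all libraries. It was therefore near 0, and no difference was detectable at this depth.

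The other 2 ligands act through death receptors. *Tnfsf10* (ENSMUSG00000039304, chr3:27317028-27342427) encodes TRAIL. It had 456, 530, 520 and 581 normalized counts in TNFR2+ replicates 1 to 4, and 378, 233, 351 and 209 in TNFR2- replicates 1 to 4. The groups did not overlap (522 ± 51.2 and 293 ± 83.8, SD, n = 4 each). The log2 fold change of 0.87 passed the threshold (standard error 0.22, 95% interval 0.40 to 1.34, limma adjusted p = 0.0261). This call was the least stable of the 3, since the adjusted p exceeded 0.05 in 5 of the 8 fits that left out 1 library (TNFR2+ replicate 2, 3 or 4, or TNFR2- replicate 2 or 4), with log2 fold changes still between 0.73 and 1.01 over the 8. It was also lost when the variances were moderated without a trend (limma adjusted p = 0.0852).

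*Fasl* (ENSMUSG00000000817, chr1:161780689-161788495) encodes Fas ligand, by which T cells kill cells that carry Fas. It had 48.2, 67.1, 61.8 and 117 normalized counts in TNFR2+ replicates 1 to 4, and 44.1, 107, 70.4 and 119 in TNFR2- replicates 1 to 4. The 2 populations covered almost the same range, with a log2 fold change of −0.19 (95% interval −1.07 to 0.69, limma adjusted p = 0.829). The interval was the widest among the 5 ligands whose groups overlapped.

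The order of the libraries within a population differed between ligands. TNFR2- replicate 4 had the lowest value of its group in *Tnf*, *Tnfsf8*, *Tnfsf10* and *Tnfsf11* and the highest in *Lta*, *Ltb*, *Cd40lg* and *Fasl*. TNFR2+ replicate 4 was the highest of its group in *Lta*, *Tnfsf10*, *Tnfsf11*, *Cd40lg* and *Fasl*. Replicate 1 of the TNFR2+ libraries had the most *Tnf* and *Tnfsf14* and the least *Ltb*, *Tnfsf10*, *Tnfsf11*, *Cd40lg* and *Fasl*.

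Levels were compared between ligands as normalized counts per kilobase of the longest annotated transcript. In TNFR2+ Tregs *Ltb* was the most abundant with a mean of 982 per kb and a range over libraries of 876 to 1105, and *Tnfsf8* followed with 586 (523 to 717). *Tnfsf11* came next with 218 (167 to 241), and neither *Ltb* and *Tnfsf8* nor *Tnfsf8* and *Tnfsf11* overlapped. From *Tnfsf11* down through *Cd40lg* at 170 (131 to 228), *Tnf* at 150 (98.2 to 208), *Tnfsf10* at 104 (91.3 to 116) and *Lta* at 92.9 (60.2 to 150), the ranges of neighbors overlapped, so that neighbors are not told apart. Over longer steps *Tnfsf11* lay wholly above *Tnfsf10* and *Lta*, and *Cd40lg* wholly above *Tnfsf10*. *Fasl* at 37.9 (24.9 to 60.2) just met *Lta* and overlapped *Tnfsf14* at 33.8 (17.2 to 45.5), and *Cd70* at 3.72 (0 to 10.1) was below all.

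In TNFR2- Tregs *Ltb* led again with 871 per kb (750 to 1040), apart from all others. *Tnfsf8* at 250 (200 to 330) and *Tnf* at 203 (112 to 235) overlapped there. *Cd40lg* at 126 (94.1 to 193), *Tnfsf11* at 103 (76.1 to 142) and *Lta* at 100 (82.8 to 116) overlapped each other. The range of *Tnf* overlapped each of these as well. *Tnfsf10* at 58.6 (41.9 to 75.6) lay below *Lta* without overlap and overlapped *Fasl* at 44.0 (22.8 to 61.4), and *Tnfsf14* at 8.4 (1.25 to 14.8) was separate from *Fasl*.

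**Figure D3:**
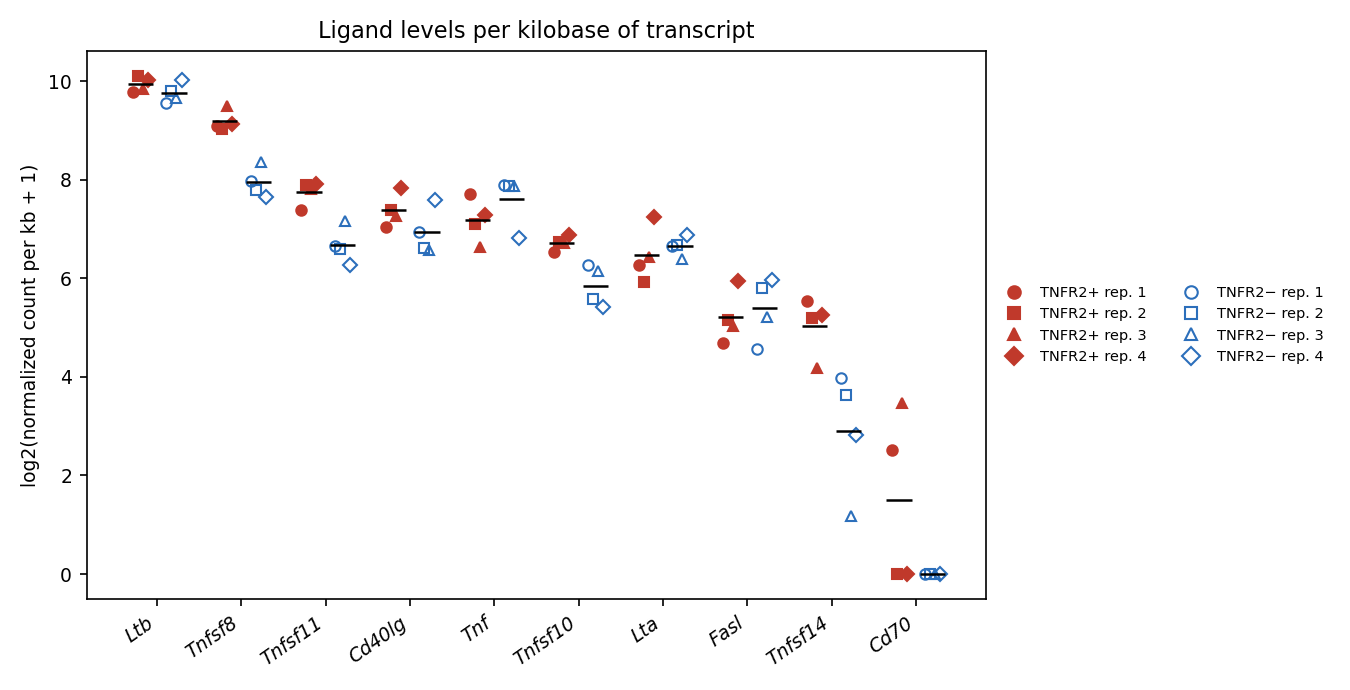
Levels of the 10 ligands as log2(normalized count per kb of the longest transcript + 1), ordered by the mean in TNFR2+ Tregs, with filled red symbols for TNFR2+ and open blue symbols for TNFR2- libraries and black bars at the mean of the log2 values. *Ltb* and *Tnfsf8* stand above the rest in TNFR2+ Tregs, while in TNFR2- Tregs *Tnfsf8* and *Tnf* overlap.

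Other ligands of the family were taken from a list of 8 genes. Of these, *Tnfsf12*, *Tnfsf13* and *Tnfsf18* were not among the genes of the deposited table, and 4 of the other 5 were tested. *Tnfsf13b*, which encodes the B cell survival factor BAFF, had 36.6, 39.2, 34.3 and 18.3 normalized counts in TNFR2+ replicates 1 to 4 and 3.06, 4.22, 1.16 and 3.03 in TNFR2- replicates 1 to 4. It was the only one of the 4 called higher, against 4.52% of all tested genes (log2 fold change 3.11, standard error 0.74, limma adjusted p = 0.0205), and none was called lower. The call was lost in 3 of the 8 fits that left out 1 library. *Tnfsf4*, which encodes OX40L, did not overlap between the groups, with 32.8 to 46.2 in TNFR2+ and 2.33 to 19.9 in TNFR2- libraries, and missed the threshold (2.37, limma adjusted p = 0.0517). *Tnfsf9* was at 2.04 and *Tnfsf15* at −0.63 on the log2 scale (limma adjusted p = 0.272 and 0.760). These genes are low, and *Eda* was listed at 0 in 1 TNFR2+ and all TNFR2- libraries.

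Of 13 genes for receptors of the 10 ligands, 9 were tested, and limma called 2 of these higher and 0 lower in TNFR2+ Tregs (2 and 3 with an unadjusted p under 0.05), with a median log2 fold change of 0.18, where 4.52% and 3.39% of all tested genes were called. The receptors called were TNFR2 itself, on which the cells were sorted, and CD30, the receptor of CD30L. *Tnfrsf8*, which encodes CD30, had 240, 323, 350 and 381 normalized counts in TNFR2+ replicates 1 to 4 and 69.6, 43.7, 112 and 37.7 in TNFR2- replicates 1 to 4. On the log2 scale it rose by 2.39 (standard error 0.34, limma adjusted p = 0.00112), so that both the ligand and the receptor of this pair were higher in the same population.

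Receptors of the other ligands that rose did not pass the threshold or were not tested. *Tnfrsf10b*, the mouse death receptor for TRAIL, was at −0.53 on the log2 scale (limma adjusted p = 0.138), with 281 ± 41.0 normalized counts in TNFR2+ and 410 ± 85.9 in TNFR2- Tregs (SD, n = 4) and no overlap between the libraries. *Tnfrsf22*, which encodes a decoy receptor for TRAIL, was at −0.37 (limma adjusted p = 0.143). *Tnfrsf11a*, which encodes RANK, and *Tnfrsf11b*, which encodes the RANKL decoy osteoprotegerin, were under the level tested, at 0 to 19.3 normalized counts in all libraries.

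For the ligands that did not pass, *Tnfrsf1a*, the other TNF receptor, had 104 ± 20.0 normalized counts in TNFR2+ and 168 ± 40.9 in TNFR2- Tregs (SD, n = 4; log2 fold change −0.68, limma adjusted p = 0.162). *Tnfrsf14*, which encodes the LIGHT receptor HVEM, had 219 ± 31.6 and 164 ± 20.3 without overlap (log2 fold change 0.42, limma adjusted p = 0.281). *Cd27* was at 0.18, *Fas* at 0.28 and *Cd40* at −0.34, with limma adjusted p values of 0.50, 0.545 and 0.534. *Ltbr*, the receptor of the lymphotoxin heterotrimer, is normally made by stromal and myeloid cells and was listed at 0 in 6 of the 8 libraries.

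**Figure D4:**
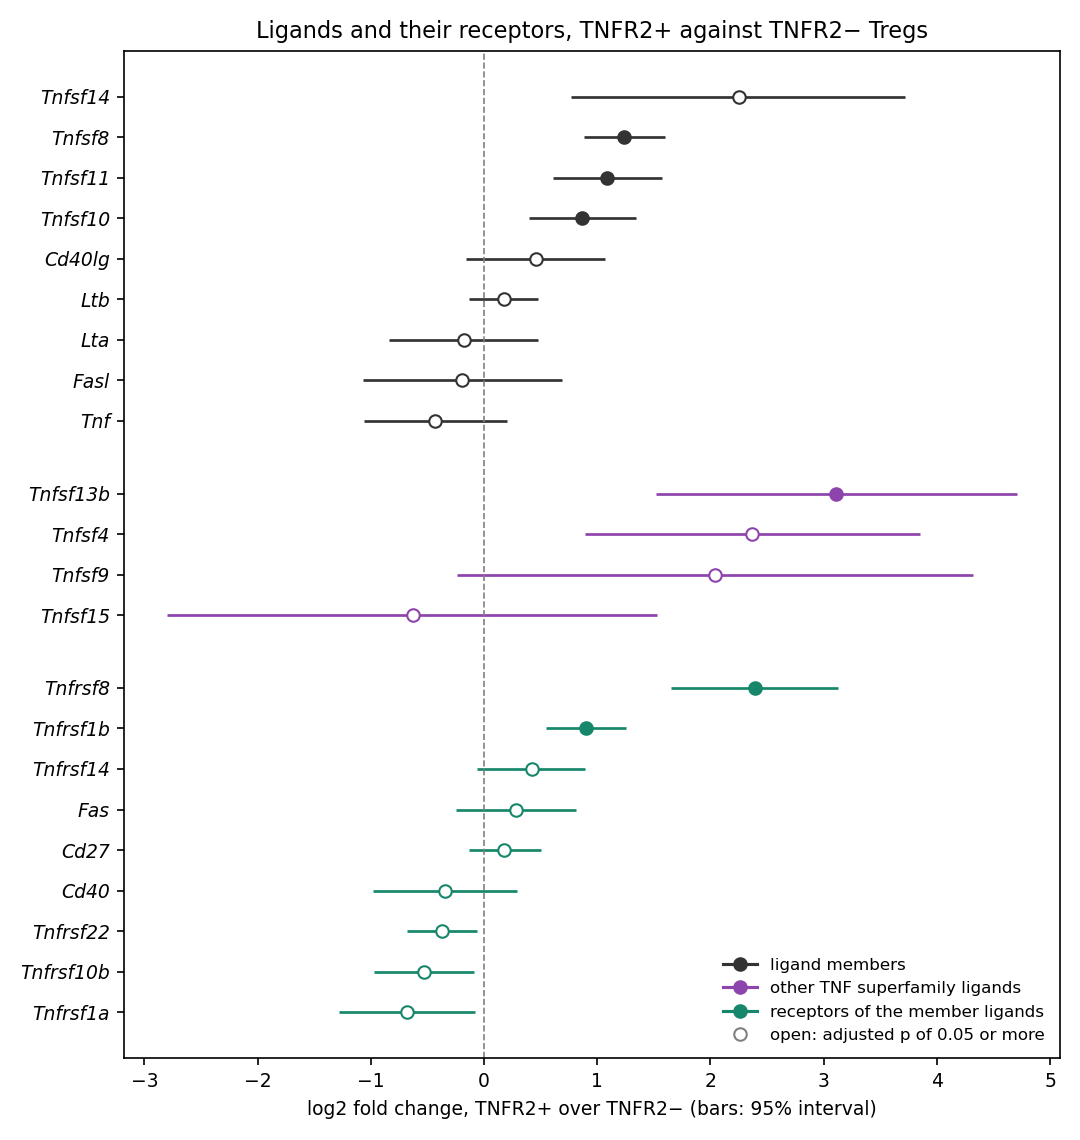
Log2 fold change of TNFR2+ over TNFR2- Tregs with 95% intervals for the 9 tested ligands (black), 4 other ligands of the family (purple) and 9 receptors (green), where filled symbols have an adjusted p under 0.05 from limma. *Tnfsf8* at 1.24, *Tnfsf11* at 1.09, *Tnfsf10* at 0.87, *Tnfsf13b* at 3.11, *Tnfrsf8* at 2.39 and *Tnfrsf1b* at 0.90 are filled, and no filled symbol is below 0.

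Genes that process the ligands at the membrane showed no call in either direction among 9 tested by limma (2 and 0 with an unadjusted p under 0.05), with a median log2 fold change of 0.19. Over all tested genes 7.91% were called in either direction, so that no call among 9 is near that share. *Adam17*, the TNF sheddase, had 616 ± 100 normalized counts in TNFR2+ and 616 ± 177 in TNFR2- Tregs (SD, n = 4; log2 fold change 0.03, 95% interval −0.43 to 0.49). *Adam10*, a sheddase for FasL among other proteins, was higher in every TNFR2+ library, from 972 to 1105 against 750 to 941, with a log2 fold change of 0.33 that did not pass (limma adjusted p = 0.158). *Rhbdf1*, which encodes iRhom1, a carrier of ADAM17, had 65.9 ± 53.3 against 12.4 ± 11.3 (log2 fold change 2.46, limma adjusted p = 0.0944), with libraries of the groups overlapping. *Frmd8*, which stabilizes ADAM17 at the cell surface, was at 0.19 (limma adjusted p = 0.484).

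Of 13 genes whose products act on the mRNA of *Tnf* or of other genes, all tested, limma called 1 higher and 4 lower in TNFR2+ Tregs, against 4.52% and 3.39% of all tested genes. Their median log2 fold change was −0.17. The genes that fell included 3 that speed mRNA decay. *Zfp36*, which encodes tristetraprolin, had 4303, 5793, 5010 and 4435 normalized counts in TNFR2+ replicates 1 to 4 and 6700, 7099, 8484 and 5857 in TNFR2- replicates 1 to 4. Its libraries were all lower in TNFR2+ Tregs (log2 fold change −0.52, standard error 0.13, limma adjusted p = 0.0282), TNFR2+ replicate 2 lying just under TNFR2- replicate 4. *Zfp36l2*, of the same family, had 6769 ± 455 against 9059 ± 751 (SD, n = 4; −0.42, limma adjusted p = 0.0196), and *Zc3h12a*, which encodes the endonuclease Regnase-1, had 1871 ± 149 against 2547 ± 180 (−0.45, limma adjusted p = 0.0299).

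The third member of the *Zfp36* family went the other way. *Zfp36l1* had 5820 ± 216 normalized counts in TNFR2+ and 3975 ± 396 in TNFR2- Tregs (SD, n = 4; log2 fold change 0.55, standard error 0.10, limma adjusted p = 0.00506). *Arid5a*, whose product counters Regnase-1 on some inflammatory mRNAs, fell the most. It had 1856, 1152, 1870 and 1653 in TNFR2+ replicates 1 to 4 and 3333, 2826, 3062 and 3290 in TNFR2- replicates 1 to 4 (−0.96, standard error 0.15, limma adjusted p = 0.00222). *Arid5a* and *Zfp36l1* stayed past the threshold in all 8 fits that left out 1 library, whereas *Zfp36*, *Zc3h12a* and *Zfp36l2* did in 2, 3 and 5. Moderation of the variances without a trend ended the calls of *Zfp36l1*, *Zfp36*, *Zc3h12a* and *Zfp36l2*, quantile normalization those of the last 3, and rescaling to equal protein-coding sums those of *Zfp36* and *Zc3h12a*. Over the alternatives that kept all libraries, their limma adjusted p reached 0.0771, 0.151, 0.128 and 0.223, while that of *Arid5a* reached 0.0438. *Elavl1*, which encodes the stabilizing protein HuR, *Khsrp* and *Hnrnpd* were higher in every TNFR2+ library and missed the threshold (log2 fold changes of 0.25, 0.39 and 0.28, adjusted p = 0.291, 0.0745 and 0.191 from limma).

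**Figure D5:**
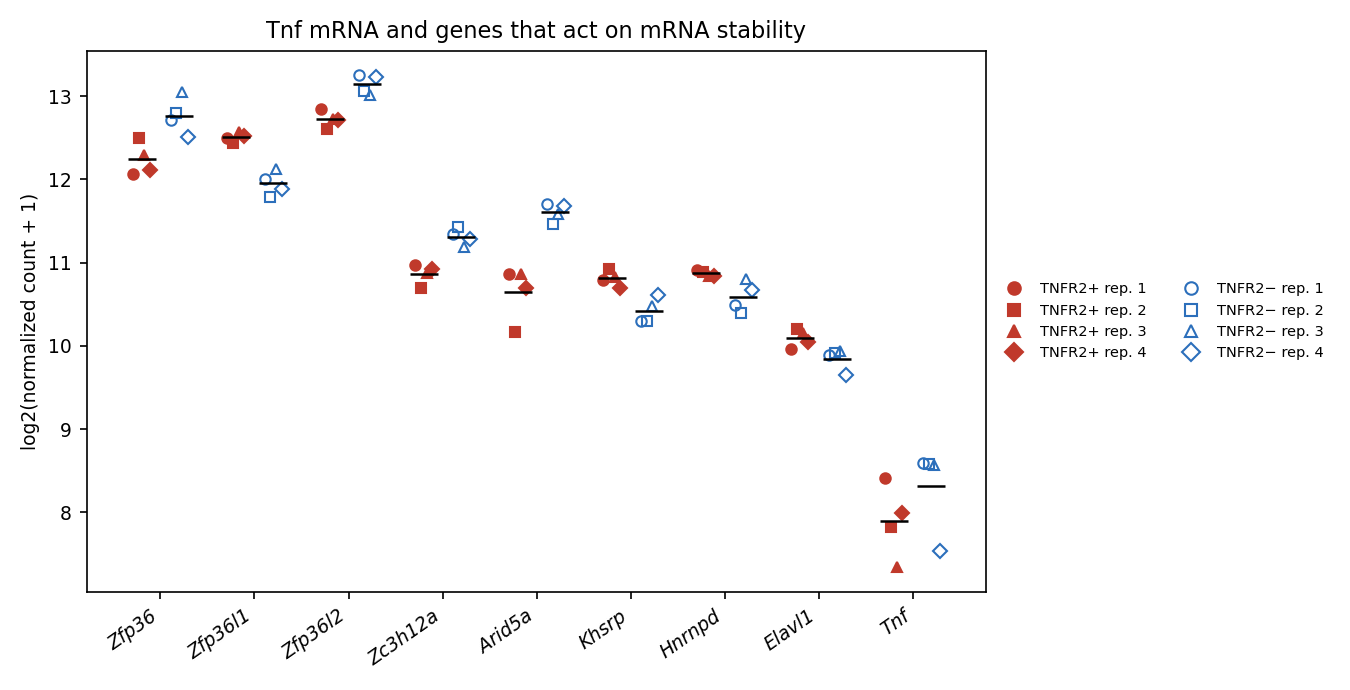
Normalized counts of *Tnf* and of 8 genes whose products bind its AU-rich elements or other mRNAs, per library on a log2(normalized count + 1) axis, with filled red symbols for TNFR2+ and open blue symbols for TNFR2- libraries and black bars at the mean of the log2 values. *Zfp36*, *Zfp36l2*, *Zc3h12a* and *Arid5a* are lower and *Zfp36l1* is higher in all TNFR2+ libraries, while the groups overlap in *Tnf*.

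For each ligand with a mean of at least 50, the genes with the most similar course over the 8 libraries were taken by the smallest root mean square distance between centred log2 values. *Tnfsf8* was closest to *Mapre2* (distance 0.125), *Plxnd1* (0.126) and *Blcap* (0.134), *Tnfsf10* to *Rora* (0.11), *Cd44* (0.13) and *Dapp1* (0.133), and *Tnfsf11* to *Grhl1* (0.14), *Plagl1* (0.164) and *Stard10* (0.17). *Tnf* was closest to *Kif1b* (0.149), *Camkk1* and *Cyp4x1* (0.192 each), and *Ltb* to *Pcbp2* (0.0606), *Scaf11* and *Csrp1*. The nearest gene was *D030056L22Rik* for *Lta*, *Ndufc2* for *Cd40lg* and *Rprd1a* for *Fasl*. No ligand was among the 3 nearest genes of another.

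Markers of other cells that can make these ligands were summed per library. B cell markers (8 of 10 in the table) summed to between 3955 and 6030 in TNFR2+ and between 1789 and 2882 in TNFR2- libraries, most of it *Ighm*, which was higher in TNFR2+ Tregs (log2 fold change 1.27, limma adjusted p = 0.000745). *Cd22* had 273 to 350 in TNFR2+ and 54.7 to 223 in TNFR2- libraries (log2 fold change 1.2, limma adjusted p = 0.0612). *Cd79b* and *Ms4a1* were at 0.94 and 0.26 on the log2 scale, and *Ebf1* was at −0.43, all without passing. *Cd79a* and *Blk* were under 12 in all libraries, and *Pax5* had 0 to 9.68 in TNFR2+ and 1.04 to 41.5 in TNFR2- libraries. T follicular markers (6 of 6) summed to between 2271 and 2951 and between 972 and 2385, with *Pdcd1* higher in TNFR2+ Tregs (log2 fold change 1.78, limma adjusted p = 0.00801). Cytotoxic lymphocyte markers (7 of 10) summed to between 142 and 212 and between 105 and 170, among them *Nkg7* at 49.2 to 92.3 and 2.03 to 18.4 (log2 fold change 3.19, limma adjusted p = 0.00927). The other cytotoxic markers tested, *Cd8b1*, *Eomes* and *Prf1*, were at 0.04, 0.11 and −1.09 and did not pass. Innate lymphoid markers (6 of 6) summed to between 2891 and 3943 and between 2567 and 3145, with *Gata3*, which T cells also make, higher in TNFR2+ Tregs (0.63, limma adjusted p = 0.0159), and myeloid and dendritic cell markers (6 of 12) to between 58.2 and 144 and between 104 and 186. Platelet and erythroid markers had 1 of 6 genes in the table each, at 12.2 to 221 and 31.2 to 178, and at 0 to 12.1 and 0 to 10.6. Of these sums only that of B cell markers was without overlap between the groups in the direction of *Tnfsf8*, *Tnfsf10*, *Tnfsf11* and *Tnfsf14*, the T follicular, cytotoxic and innate lymphoid ranges overlapped, and the part of these cells in the differences was not tested. The Treg markers themselves (8 of 8) summed to between 30472 and 36040 in TNFR2+ and between 22897 and 28070 in TNFR2- libraries. Within them *Ctla4* (3968 to 5030 against 1985 to 2829, limma adjusted p = 0.0012) and *Ikzf2* (8119 to 11555 against 3180 to 7270, limma adjusted p = 0.0145) were higher in TNFR2+ Tregs. So were *Cd3e* and *Ikzf4* (limma adjusted p = 0.00919 and 0.0425), while *Cd3g* and *Cd4*, at 0.5 and 0.28 on the log2 scale, did not pass. *Foxp3* was at −0.23 and *Il2ra*, at 2561 to 3070 against 3219 to 3990, at −0.34 on the log2 scale (limma adjusted p = 0.232 and 0.086).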

How the data were processed

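RNA was sequenced from 4 libraries of TNFR2+ and 4 of TNFR2- splenic Tregs. Per the labels and methods, the authors prepared stranded total RNA libraries, removed adapters with Trim Galore, estimated transcripts with Salmon 1.3.0 on GRCm38, and scaled genes with DESeq2 1.28 in R 4.0. The deposited signal is a normalized count per gene, not on a log scale. In 2806 genes with a single transcript over 1500 bases, 69.7% to 96.5% of low values (up to 12) were whole multiples of a step within 0.1. A step fixed in advance would give 20% by chance. The step used was the best of many tried per library, so its chance level is higher and was not computed. Reads of genes with several transcripts were not recovered, so no count model was fitted.

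Values were tested as log2(value + 1) with limma 3.58.1 in R 4.3.3, with an intensity trend, no covariate, 2-sided, over the 13990 genes with a mean of at least 10. Single genes also had an exact permutation test over 70 relabellings. The procedure was tested on simulated data with the same relative spread set for all genes and libraries. Real libraries need not share it, and no result here rests on that test. GENCODE M21 matched 20008 of 20172 identifiers. Plots used matplotlib 3.10.9 in python 3.11.15. Libraries of a group differed by 33.5 to 89.7 times the counting variance, which covers counting error only, so none was a repeat deposit.

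The ligands, gene lists, tests and alternatives were chosen with earlier results of these data known. Genes named are the 10 ligands, and members of 4 pathway lists that passed the threshold (or the 3 with the smallest p where fewer than 3 passed). Of the other tested genes within 100 kb of a ligand, those that passed the threshold are named. For ligands with a mean of at least 50 the 3 genes of most similar course are named, or only the nearest for *Lta*, *Cd40lg* and *Fasl*. *Adam17*, the receptors and other ligands that missed the threshold, *Khsrp*, *Hnrnpd*, *Elavl1* and cell markers are named beside these, chosen after their values were seen.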

Additional observations from a re-analysis of the deposited data

Results flagged for a closer look

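In 4 of 88 groups of 4 libraries examined, among the ligands and the genes of the pathway lists, 1 library lay so far from the other 3 that its gap, taken as a share of the group's range on the log2(normalized count + 1) scale, exceeded Dixon's 95% critical value of 0.829 for 4 samples, and chance alone gives about 1 in 20. *Tnf* in TNFR2- replicate 4 was at 184 normalized counts, where the other 3 libraries had 380 to 386, and the gap was 0.979 of the range. *Elavl1* in the same library was at 800 against 948 to 977 (0.85 of the range). *Cd40* in TNFR2+ replicate 4 was at 91.4 against 117 to 119 (0.925 of the range). *Timp3*, which encodes an inhibitor of ADAM17, was at 119 in TNFR2+ replicate 4 and at 0.497 to 0.583 in the other 3 TNFR2+ libraries (0.987 of the range).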

How the results depend on the processing

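The direction of *Tnfsf8*, *Tnfsf10*, *Tnfsf11*, *Tnfsf14*, *Ltb*, *Cd40lg* and *Tnf* held under all alternatives tried, and *Tnfsf8* and *Tnfsf11* passed the threshold in all. Without a trend in the variances 283 genes were called higher and 182 lower, against 633 and 474, while rescaling to equal protein-coding sums gave 780 and 391. Without the trend *Tnfsf10* missed the threshold (limma adjusted p = 0.0852). Leaving out 1 library gave 344 to 761 genes higher and 278 to 540 lower, 2 to 3 ligands higher and a median ligand log2 fold change of 0.31 to 0.68. *Fasl* moved between −0.47 (without TNFR2- replicate 1) and 0.00, just above 0 (without TNFR2- replicate 4). With the replicate number as a block 675 genes were higher and 508 lower, with 4 ligands higher, since *Tnfsf14* passed (2.25, limma adjusted p = 0.0377). Libraries with the same number did not deviate together (r = 0.001, −0.009, −0.039 and −0.005 for replicates 1 to 4), so the numbers were not taken as pairs. With a minimum mean of 50 *Tnfsf14* was not tested and the ligand median was 0.32. With no minimum *Cd70* entered and it was 0.66. *Zfp36l1* (0.0771), *Zfp36l2* (0.223), *Zc3h12a* (0.128), *Zfp36* (0.151) and *Tnfrsf1b* (0.0574) had their highest adjusted p from limma, over the alternatives that kept all libraries, above 0.05. The cause of these changes was not tested. At 0 reads in 6 libraries, no difference in *Cd70* could be detected at this depth.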
